A study of Mus musculus with 12 samples.

Results

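Ear skin of untreated Card14-/- mice was compared with the untreated ear skin of 4 other genotypes. Of the 12 arrays of the series, 5 held untreated skin: 1 of Card14-/- and 1 each of WT, Tlr7-/-, Tlr9-/- and Tlr7-/-Tlr9-/-, all labelled C57BL/6J. Each array read RNA pooled from 6 to 8 mice, so every group of this comparison is a single pool. Genes were sorted by whether the Card14-/- value lay above or below the values of all 4 other untreated arrays. The other 7 arrays held ear skin 4 h after one dose of 62.5 mg cream with 5% imiquimod (IMQ), an agonist of Toll-like receptor 7: 2 arrays of Card14-/-, 1 each of WT, Tlr7-/- and Tlr9-/-, and 2 of Tlr7-/-Tlr9-/-. They were used to ask whether a difference seen at baseline was present again in treated Card14-/- skin. The sources used here state neither the age of the mice nor which part of the gene the Card14-/- allele removes.

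CARD14 is a scaffold protein found mainly in keratinocytes of the epidermis. On activation it assembles with BCL10 and the paracaspase MALT1 and drives NF-kB and MAP kinase signalling, with output of chemokines, IL-36 family cytokines and antimicrobial proteins. Activating variants of human CARD14 are known for causing familial psoriasis and pityriasis rubra pilaris. The comparison asks what skin that lacks CARD14 expresses before any irritant is applied.

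The Card14 probe was lower in all 3 Card14-/- arrays than in any other. Its normalized log2 signal was 9.89 in untreated Card14-/- skin, against 10.83 in WT, 11.10 in Tlr7-/-, 11.33 in Tlr9-/- and 11.28 in Tlr7-/-Tlr9-/- skin. After IMQ it was 9.68 and 9.63 in Card14-/- skin, against 11.27 in WT, 11.15 in Tlr7-/-, 11.65 in Tlr9-/-, and 11.45 and 11.45 in Tlr7-/-Tlr9-/- skin. The Card14-/- arrays averaged 9.73 ± 0.14 (SD, n = 3) and the others 11.28 ± 0.24 (SD, n = 9), a 2.92-fold lower signal (exact permutation test, two-sided p = 0.00909, the smallest that 3 against 9 arrays allow). With repeat arrays averaged, 2 against 8 group values gave p = 0.0444 in the same exact test, again the smallest possible. The signal stayed well above background on all 12 arrays. The probe lies at chr11:119206302-119206361 in mm9, and the sources used here do not say whether the deletion covers it. In the fit across all genes the untreated difference was -1.24 ± 0.22 (log2, SE) with an adjusted p of 0.348.

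**Figure D1:**
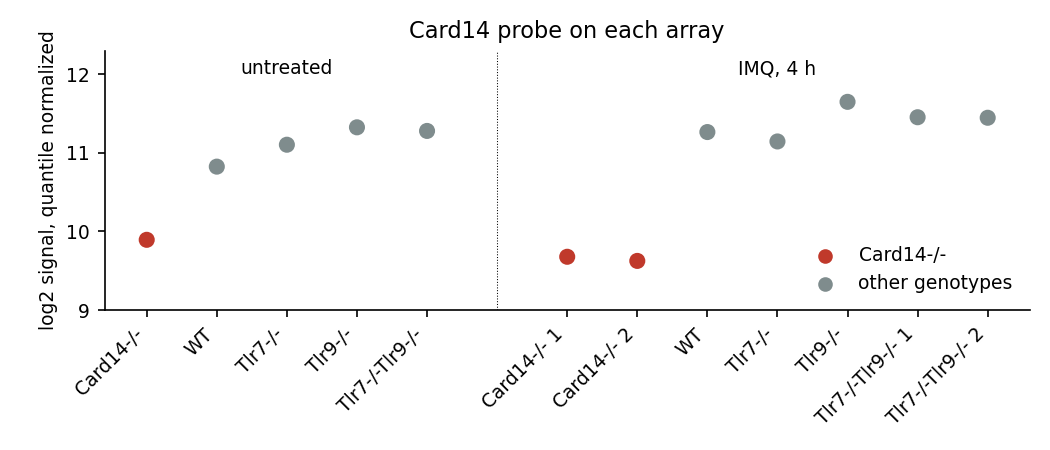
Log2 signal of the Card14 probe (vertical axis, quantile normalized) on each array, with untreated arrays on the left and IMQ arrays on the right of the dotted line. Red points are Card14-/- arrays and grey points are other genotypes. The 3 Card14-/- arrays lie between 9.63 and 9.89, below all 9 others, which start at 10.83.

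All 5 untreated arrays lay on slide 1, together with 3 IMQ arrays (WT, Tlr7-/-, Tlr9-/-); slide 2 held the IMQ arrays of Card14-/- and Tlr7-/-Tlr9-/-. On slide 1 the untreated Card14-/- array lay in row 2 and the other 4 untreated arrays in row 1, so row and genotype cannot be told apart in the untreated comparison. Between 62.1% and 65.7% of spots were well above background on the untreated arrays, and no spot was saturated. The 75th percentile of the signal was 1070 for Card14-/- and 1112 to 1236 for the other untreated arrays. The untreated Card14-/- array correlated with the other 4 at r = 0.990 to 0.991, and those 4 with each other at 0.990 to 0.993. Epidermal keratins defined the tissue: Krt14 was 18.29 in Card14-/- and 18.20 to 18.32 in the other untreated skin. The Y-linked gene Ddx3y was 6.86 in Card14-/- and 6.37 to 6.76 in 3 of the other untreated pools, but 1.91 in the Tlr7-/- pool. Xist, expressed in female cells, was 7.89 in that pool and 6.66 to 6.80 in the other untreated pools. After IMQ, Xist was 1.91 in Tlr7-/-, 4.86 and 4.72 in Tlr7-/-Tlr9-/- and 6.55 to 6.87 in the other treated skin. The pools thus differed in sex-linked genes, and the effect on the ranges was not tested. Hmox1, the haem-degrading enzyme, was 12.91 in Card14-/- and 12.95 to 13.11 in 3 other untreated pools, but 9.41 in the WT pool.

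Of 24080 genes tested, 42 were called higher and 7 lower in untreated Card14-/- skin, which is 0.174% and 0.0291% of all genes (limma, adjusted p under 0.05 and a log2 difference of at least 1). In this fit the spread came from the 4 other genotypes, and the lone Card14-/- array was assumed to vary like them. Of the 42 rises, 25 were below background on all 4 other arrays, so their fold change is a lower bound. Only 14 of the 49 called genes were well above background on all 5 untreated arrays, 12 higher and 2 lower. The number of calls fell to 31 without the WT array, 27 without Tlr7-/- and 20 without Tlr7-/-Tlr9-/-. It was 4 among genes well above background on all 5 untreated arrays, fitted alone, and 9 with the spread pooled over all 10 groups. By position alone, 15.9% of genes lay above the range of the other 4 arrays and 19.8% below it. The distance to that range was at least 1 on the log2 scale for 134 genes above and 65 below, together 0.826% of genes. Of these 199 genes, 46 were well above background on all 5 untreated arrays. All genes at least 1 outside the range numbered 44 under the normexp background correction and 62 in the deposited table, against 199.

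Krt4 was among the called rises. It encodes a keratin of internal, non-cornified stratified epithelia such as oesophagus and tongue. Its signal was 9.11 in untreated Card14-/- skin, against 4.56 in WT, 4.13 in Tlr7-/-, 3.90 in Tlr9-/- and 3.89 in Tlr7-/-Tlr9-/- skin, a difference of 4.99 ± 0.29 (SE, adjusted p = 0.0143). Of the 12 arrays only the untreated Card14-/- and WT arrays read it well above background. In treated skin the same probe read 3.09 and 4.11 in Card14-/- and 2.84 to 4.23 in the others, so the Card14-/- values lay inside the range. Krt13, the usual partner keratin of Krt4, was 9.73 in untreated Card14-/- skin and 9.07 to 9.74 in the others.

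Nphp4, which encodes nephrocystin-4 of the ciliary transition zone, was well above background on every array. It read 8.19 in untreated Card14-/- skin, against 6.05 in WT, 6.33 in Tlr7-/-, 6.23 in Tlr9-/- and 6.16 in Tlr7-/-Tlr9-/- skin (difference 2.00 ± 0.14, SE, adjusted p = 0.0255). After IMQ it read 6.27 and 6.33 in Card14-/- and 6.35 to 6.79 in other skin, so no rise was seen there. Tmem221, a membrane protein gene, was also measured on every array. It read 6.65 in Card14-/- and 4.34 to 4.60 in the other untreated skin (adjusted p = 0.0165). After IMQ it read 5.56 and 5.71 in Card14-/- skin, 5.87 in WT and 4.70 to 5.09 in the other treated skin. Treated Card14-/- skin was thus inside the range, but higher than all treated groups except WT. The untreated calls of Nphp4 and Tmem221 were lost when any 1 of the other untreated arrays was left out, and that of Krt4 when any but the WT array was.

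The other named rises came from dim probes, most of them below background on all 4 other untreated arrays. Where all 4 were below background, the spread used by the fit came from those readings and does not measure how expression varies between pools. The bitter taste receptor gene Tas2r106 read 8.36 in untreated Card14-/- skin and 1.77 to 2.09 in the others, which is at least 22.5-fold higher. It passed the filter on only 2 arrays, the untreated Card14-/- array among them. After IMQ it read 1.79 and 2.29 in Card14-/- skin, while 1 treated array of another genotype, Tlr7-/-, read 7.35. Ppy, which encodes pancreatic polypeptide, was at least 3.49-fold higher, and Prl3a1, of the prolactin family, at least 2.69-fold higher. Lrrc34 was at least 7.46-fold, Clca3b at least 6.03-fold and Ccdc182 at least 1.62-fold higher. Epha6, an ephrin receptor, read 7.41 in Card14-/- and 3.23 to 3.73 in the other untreated skin, and the reproductive homeobox gene Rhox2h read 5.59 in Card14-/- skin and at most 4.31 in the others. None of these genes lay above the treated range in both treated Card14-/- arrays. Of the 42 rises, 10 had a treated difference above 0.

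Named falls that passed the test were 4. The number of called falls, 7 with all arrays, was 0 without the Tlr7-/-Tlr9-/- array, 1 without Tlr7-/-, 2 without WT and 4 without Tlr9-/-. Dpy19l4, of the DPY19 family of C-mannosyltransferase-like proteins, read 5.05 in untreated Card14-/- skin, against 7.26 in WT, 7.33 in Tlr7-/-, 7.34 in Tlr9-/- and 7.30 in Tlr7-/-Tlr9-/- skin (difference -2.25 ± 0.10, SE, adjusted p = 0.00419). In treated skin it read 6.97 and 7.02 in Card14-/- and 5.86 to 7.06 in other skin. A second Dpy19l4 probe, also well above background on all 12 arrays, differed by only -0.22 in untreated skin. Kcns3, a modifier subunit of voltage-gated potassium channels, read 4.94 in Card14-/- and 6.97 to 7.28 in the other untreated skin (adjusted p = 0.0291), and 6.85 and 6.59 in treated Card14-/- skin, inside the range of the other treated skin. The call of Kcns3 was lost when any 1 of the other untreated arrays was left out, and that of Dpy19l4 without the Tlr7-/-Tlr9-/- array.

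Nhs, the Nance-Horan syndrome gene, was not well above background in untreated Card14-/- skin, where it read 1.91, and read 5.25 to 5.85 in the other untreated skin. It was at least 2.60-fold lower there (adjusted p = 0.0236). In treated skin it read 5.29 and 5.29 in Card14-/- and 4.67 to 5.39 in the others. In the test of a change of the difference between treated and untreated skin, Nhs was the 1 gene called (3.99 on the log2 scale, adjusted p = 0.0386). That value rests on the untreated reading below background, so the size of the change was not measured. The call was lost with the normexp background, where 0 genes were called upward and 13 downward, and with the mean over probes, where 0 were called. A second Nhs probe, well above background on 3 arrays, differed by -0.02 in untreated skin. Cd200r4, of the CD200 receptor family, was at least 1.39-fold lower in untreated Card14-/- skin (adjusted p = 0.0438).

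Genes far below the range that did not pass the test included Il19, a cytokine of the IL-20 subfamily, which read 1.86 in untreated Card14-/- and 4.14 to 5.31 in the other untreated skin (adjusted p = 0.257). It was not well above background in Card14-/- skin and was so on 3 of the other 4 arrays. Tectb, which encodes a tectorin of the inner ear, was not well above background in Card14-/- skin and was at least 1.47-fold lower there. Radx, Cfap157, Fev, Zim3 and Hcrt were not well above background in Card14-/- skin either and were so on only 1 to 3 of the other 4 arrays, so no size is given.

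None of 37 gene lists had a called member, so the lists are described by how many members lay outside the range of the other 4 arrays, beside the 15.9% above and 19.8% below for all genes. The median untreated difference over all genes was -0.01. Antimicrobial and stress keratinocyte genes, gasdermins, cell cycle genes and interferon-stimulated genes had shares below the range of 62.5%, 66.7%, 67.7% and 59.5%. Skeletal muscle genes, glucocorticoid-responsive genes and respiratory chain genes had shares above the range of 65.6%, 56.3% and 40.6%. Adipocyte genes, also not drawn, had 31.8% above and 0 below. Hair genes had 6.12% below and none above. In pooled whole skin, fewer cells of a type and less RNA per cell cannot be told apart.

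**Figure D2:**
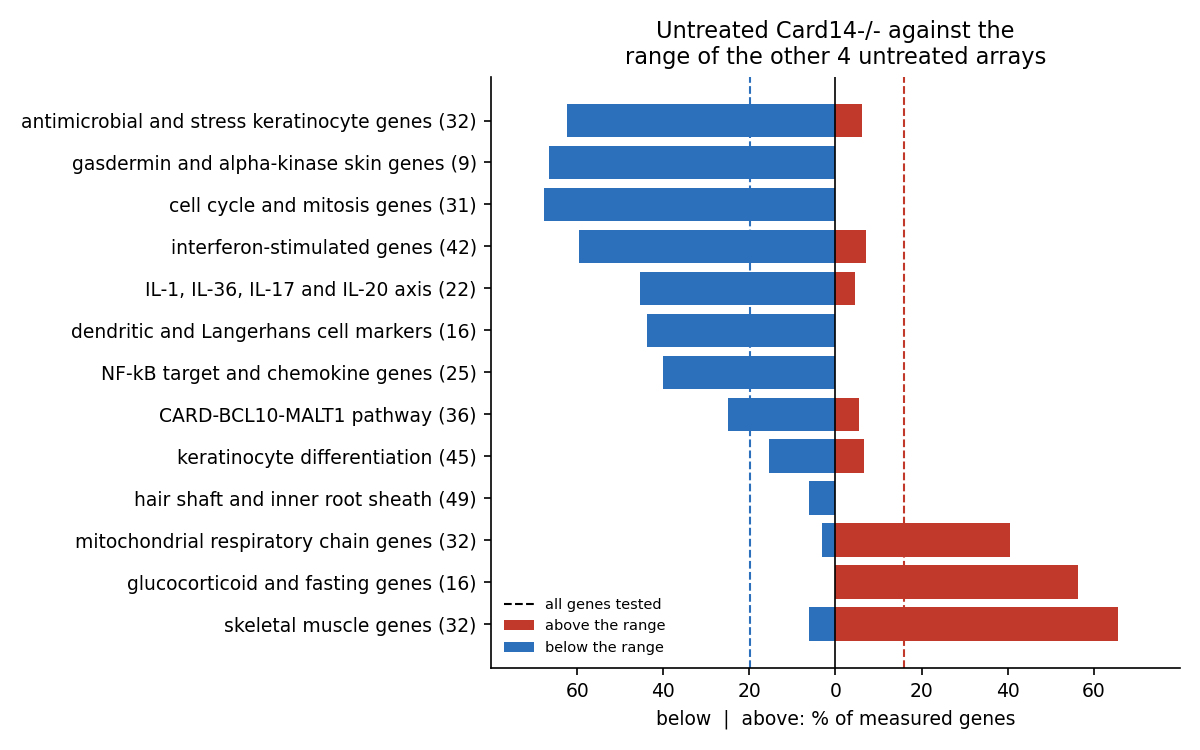
Percentage of the measured genes of 13 of the 37 lists (number measured in brackets) that lay below (blue, left) or above (red, right) the values of all 4 other untreated arrays in untreated Card14-/- skin. Dashed lines mark the same percentages for all genes tested, 19.8% below and 15.9% above. The first 8 lists exceed the lower line and the last 3 exceed the upper one.

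Antimicrobial and stress keratinocyte genes had the lowest median difference of the 37 lists, while the cell cycle and gasdermin lists had larger shares below the range. This list holds the keratins of wounded and psoriatic epidermis, cornified envelope precursors, stefins, calprotectin and defensins. Of 32 measured, 20 lay below the range and 2 above, 28 were below the mean of the other pools, and the median difference was -0.70. The mean log2 level of the list was 9.72 in untreated Card14-/- skin and 9.97 to 10.65 in the other 4 pools. A pair of promoters of this list, of neighbouring families in the epidermal differentiation complex, are shown because both genes lay below the range in untreated Card14-/- skin. Capitals mark the letters TGANTCA (N is any base), a loose form of the core to which AP-1 factors bind. They were searched for on both strands (the letters are their own reverse complement), and binding was not tested.

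Sprr1b, GRCm38.p6 chr3:92438780-92439029, minus strand: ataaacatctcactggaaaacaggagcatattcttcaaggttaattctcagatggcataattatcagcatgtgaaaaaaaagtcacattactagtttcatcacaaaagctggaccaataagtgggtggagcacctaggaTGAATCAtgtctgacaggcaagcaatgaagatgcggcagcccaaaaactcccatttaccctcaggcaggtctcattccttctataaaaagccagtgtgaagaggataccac
Lce3a, GRCm38.p6 chr3:92926231-92926480, minus strand: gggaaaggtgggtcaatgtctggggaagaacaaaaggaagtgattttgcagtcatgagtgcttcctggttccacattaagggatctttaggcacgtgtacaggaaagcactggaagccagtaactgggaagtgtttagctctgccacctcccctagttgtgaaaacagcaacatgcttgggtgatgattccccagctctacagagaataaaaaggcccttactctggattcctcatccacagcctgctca

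Each run is the 250 bases before the gene's start in RefSeq. Sprr1b held 1 match, starting 111 bases before the start, and Lce3a held none. Of 27025 genes with a promoter in the RefSeq table, 7.82% held a match in the same window, as did 5 of the 16 genes of this list that lay below the range and had a promoter in the table. Those 16 were picked by their values here, and the difference between the shares was not tested.

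Sprr1b, a cornified envelope precursor, read 10.07 in untreated Card14-/- skin, against 11.36 in WT, 12.44 in Tlr7-/-, 10.40 in Tlr9-/- and 11.66 in Tlr7-/-Tlr9-/- skin. Lce3a, a late cornified envelope protein, read 6.88 in Card14-/-, against 7.77 in WT, 9.23 in Tlr7-/-, 7.68 in Tlr9-/- and 8.82 in Tlr7-/-Tlr9-/- skin. In both cases Card14-/- was lowest, and the other 4 pools themselves spread over more than 1 log2 unit. Krt16, a keratin of wounded epidermis, read 12.08 in Card14-/-, against 13.76 in WT, 13.91 in Tlr7-/-, 12.80 in Tlr9-/- and 14.13 in Tlr7-/-Tlr9-/- skin. A second Krt16 probe differed by -1.59, close to the -1.57 of the first. Stfa1, a stefin that inhibits cysteine proteases, read 10.23 in Card14-/-, against 12.40 in WT, 11.86 in Tlr7-/-, 11.20 in Tlr9-/- and 11.95 in Tlr7-/-Tlr9-/- skin. Stefins and small proline-rich proteins are families of similar copies, and sharing of signal between copies was not tested. The differences of these 4 genes ranged from -1.40 ± 0.75 to -1.62 ± 0.44 (SE), and none passed the test (adjusted p 0.744 to 1.00).

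Krt6b, another wound keratin, read 10.33 in Card14-/- and 10.34 in Tlr9-/- skin, so these pools hardly differed, while WT, Tlr7-/- and Tlr7-/-Tlr9-/- skin read 13.40, 11.52 and 12.25. S100a8 and S100a9, the subunits of calprotectin, lay 0.24 and 0.43 below the range. Exceptions were Wfdc21, a secreted whey acidic protein-type inhibitor, at 15.46 in Card14-/- and 14.92 to 15.18 in the others, and the defensin gene Defb1, 0.10 above the range. The Tlr9-/- pool was the next lowest for Krt16, Stfa1, Krt6b, Lce3a and Sprr1b.

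Genes of the CARD-BCL10-MALT1 pathway showed little difference. Of 36 measured, Card14 itself included, 9 lay below and 2 above the range, with a median of -0.05. Card14 was among those below. Bcl10, the adaptor that CARD14 recruits, read 11.90 in Card14-/- and 11.91 to 12.05 in the other untreated skin. Malt1, the paracaspase, read 9.57 against 9.21 to 9.67, and Card10, which encodes the related scaffold CARD10 (CARMA3), 10.10 against 10.02 to 10.18. Among NF-kB feedback genes, Nfkbie read 8.25 in Card14-/- and 8.55 to 8.64 in the others, and Nfkb1 11.85 against 12.08 to 12.34. The feedback inhibitors Nfkbia and Tnfaip3 lay inside the range. Other probes of Bcl10, Malt1 and Nfkb1 gave differences of the opposite sign, so no direction is given for these genes.

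Among the chemokines and other targets of NF-kB, 10 of 25 lay below the range and 0 above, with a median of -0.41. Ccl20, the chemokine that attracts CCR6-bearing lymphocytes and dendritic cells, read 5.59 in untreated Card14-/- skin, against 6.39 in WT, 7.22 in Tlr7-/-, 6.32 in Tlr9-/- and 6.43 in Tlr7-/-Tlr9-/- skin. Card14-/- was lowest, and the difference did not pass the test. The monocyte chemoattractants Ccl2 and Ccl7 lay 0.21 and 0.30 below the range, and Ptgs2, the inducible cyclooxygenase, 0.20 below. Of the IL-1, IL-36, IL-17 and IL-20 axis, 10 of 22 lay below the range and 1 above, with a median of -0.12. The IL-36 cytokine genes Il1f6, Il1f8 and Il1f9 lay only 0.07, 0.20 and 0.05 below it.

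Interferon-stimulated genes had 25 of 42 below the range and 3 above, with a median of -0.30. Ifit1, an antiviral RNA-binding protein, read 5.72 in untreated Card14-/- skin, against 6.35 in WT, 6.40 in Tlr7-/-, 6.72 in Tlr9-/- and 6.35 in Tlr7-/-Tlr9-/- skin. Oasl2 lay 0.25 and Gbp6 0.44 below the range. Isg15, a ubiquitin-like modifier, was inside it at 10.52, against 10.35 to 11.24 in the other untreated skin.

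Cell cycle and mitosis genes were low throughout: all 31 measured were below the mean of the other pools, 21 below the range, with a median of -0.26. The mitotic kinase gene Cdk1 read 6.95 in Card14-/-, against 7.94 in WT, 7.21 in Tlr7-/-, 7.41 in Tlr9-/- and 7.72 in Tlr7-/-Tlr9-/- skin. The mitotic motor gene Kif11 and the topoisomerase gene Top2a lay 0.26 and 0.18 below the range. Of the 9 gasdermin and alpha-kinase skin genes, pore-forming proteins of the epidermis among them, 6 lay below the range and 0 above. Gsdmc3 read 8.33 in Card14-/- and 8.99 to 9.80 in the others, and Gsdmc4 6.20 against 6.72 to 7.31. None of these genes passed the test.

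Glucocorticoid and fasting genes lay on the other side: 9 of 16 above the range and 0 below, with a median of 0.42. The mean level of the list was 12.69 in untreated Card14-/- skin and 12.21 to 12.43 in the other 4 pools. Tsc22d3, which encodes the glucocorticoid-induced leucine zipper GILZ, read 15.13 in Card14-/-, against 14.51 in WT, 14.46 in Tlr7-/-, 14.42 in Tlr9-/- and 14.45 in Tlr7-/-Tlr9-/- skin. Its difference of 0.66 ± 0.10 (SE) had an adjusted p of 0.232. A second Tsc22d3 probe differed by 0.60. The clock and glucocorticoid target Per1 read 14.35 in Card14-/- and 13.65 to 13.82 in the others, and Pdk4, a brake on pyruvate oxidation, 11.18 against 9.96 to 10.71. The hour of sampling is not stated in the sources used here.

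Skeletal muscle genes had 21 of 32 above the range and 2 below, with a median of 0.23. The mean level of the list was 13.80 in untreated Card14-/- skin and 13.49 to 13.65 in the others. Actn3, of fast muscle fibres, read 12.18 in Card14-/- and 11.52 to 11.81 in the others, and the muscle creatine kinase gene Ckm 12.66 against 11.84 to 12.49. Respiratory chain genes had 13 of 32 above and 1 below. How much the muscle content of the pools moves the other lists was not tested.

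Of the dendritic and Langerhans cell markers, 7 of 16 lay below the range and 0 above, with a median of -0.18. Itgax, which encodes CD11c, read 9.01 in Card14-/- and 9.06 to 9.27 in the others, while the Langerhans cell marker Cd207 was inside the range at 10.91, against 10.66 to 11.04. Keratinocyte differentiation genes had 7 of 45 below and 3 above, shares of 15.6% and 6.67%, below those of all genes on both sides.

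**Figure D3:**
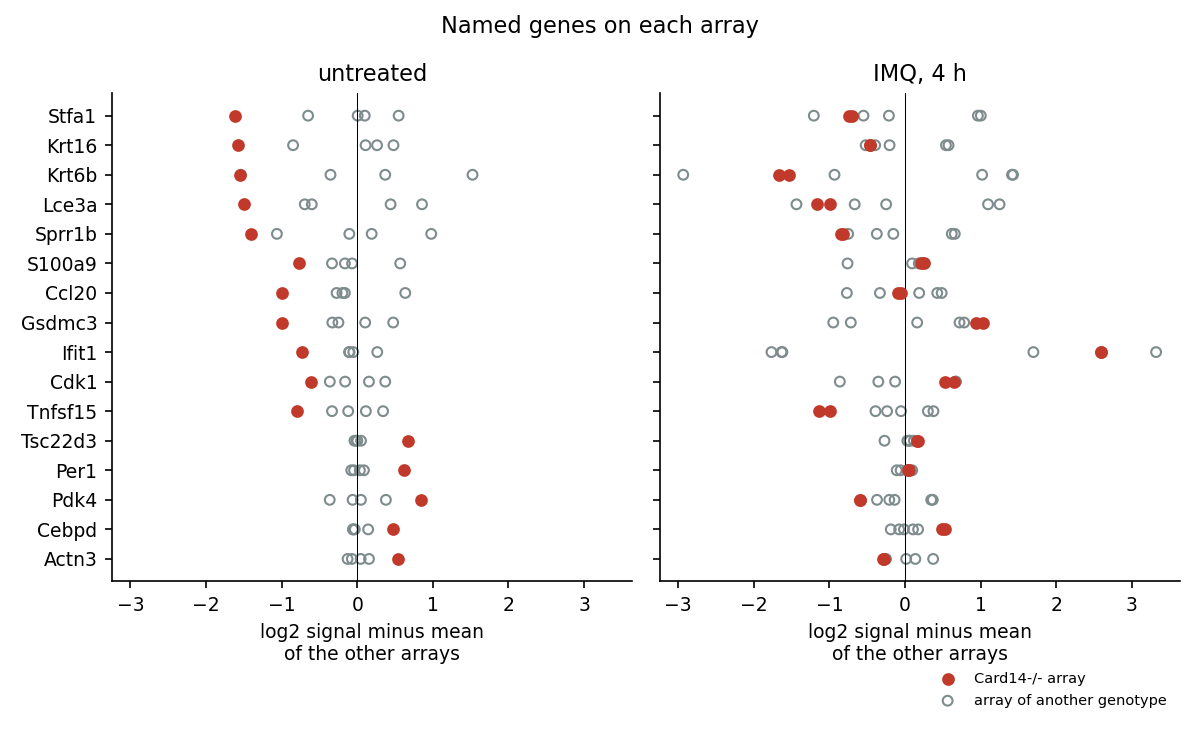
Log2 signal of 16 named genes minus the mean of the other genotypes' arrays (horizontal axis), in untreated skin on the left and after IMQ on the right. Filled red points are Card14-/- arrays and open grey circles arrays of other genotypes, with both Tlr7-/-Tlr9-/- IMQ arrays shown. In untreated skin every red point lies outside the grey ones, while after IMQ Tnfsf15 and Cebpd lie clearly outside on the same side, and Sprr1b and Tsc22d3 just outside.

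After IMQ the baseline pattern was mostly not seen again. With 1 value per group, 1 gene, a gene model without a known role, was called in treated Card14-/- skin, 0.00415% of genes, and it was inside the range in untreated skin. Averaged over both treatments, limma called 0 genes, with 676 at an unadjusted p under 0.05. Of the 49 genes called in untreated skin, 0 lay outside the treated range on the same side in both treated Card14-/- arrays. Among the 199 genes at least 1 outside the untreated range, 7 did.

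Over all genes, 13.1% lay above and 12.8% below the range of the other 5 treated arrays in both treated Card14-/- arrays. Of the genes above the range in untreated Card14-/- skin, 9.41% were above it again after IMQ (11.4% of those above it after IMQ), while 19.0% were below it. Of those below in untreated skin, 9.74% were below again (15.05% of those below after IMQ), and 12.7% were above. Across genes the untreated and the treated difference correlated at r = -0.09, with no array in common (genes are not independent replicates). In all, 825 genes, 3.43%, lay outside the range on the same side in both treatments: 361 above (1.50%) and 464 below (1.93%). Without the untreated WT array this count was 1391.

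**Figure D4:**
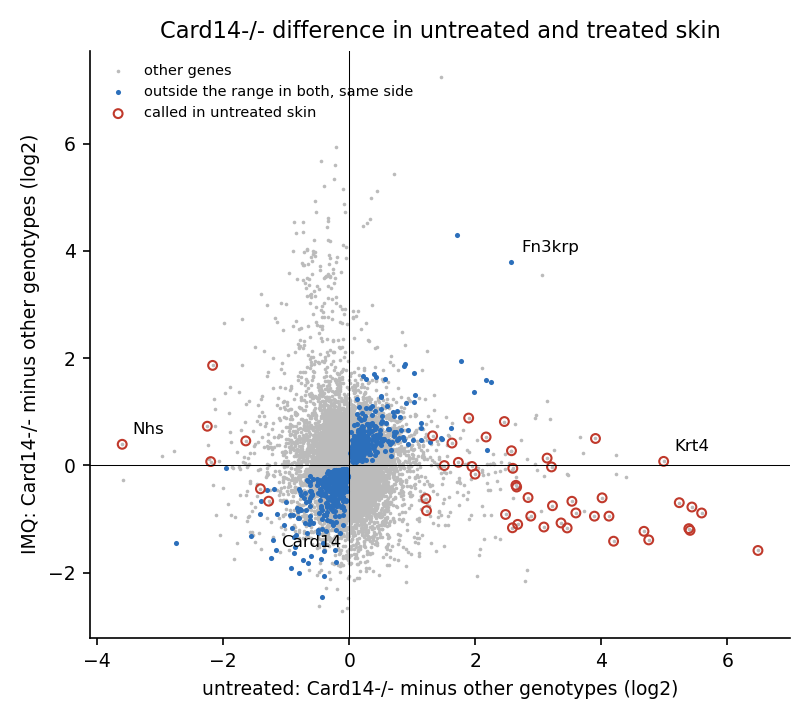
Card14-/- minus the other genotypes (log2) in untreated skin (horizontal axis) and after IMQ (vertical axis) for 24080 genes. Blue points are the 825 genes outside the range on the same side in both treatments, and red circles are the 49 genes called in untreated skin. The red circles lie along the horizontal axis, many of them set against arrays below background, and the blue points, Card14 and Fn3krp among them, along the rising diagonal.

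Several of these lists did not keep their side after IMQ. For antimicrobial and stress keratinocyte genes the treated median was -0.13, with 7 above and 5 below the treated range, and 3 genes were below it in both treatments: Sprr1b, Lce3b and Defb6. For interferon-stimulated genes the treated median was 0.57 and no gene was below the range in both. The other treated groups included Tlr7-/- and Tlr7-/-Tlr9-/- skin, which lack the receptor that IMQ activates. Ifit1 read 10.02 and 10.02 in treated Card14-/- skin, against 10.75 in WT, 5.66 in Tlr7-/-, 9.13 in Tlr9-/-, and 5.81 and 5.80 in Tlr7-/-Tlr9-/- skin. Cell cycle genes had a treated median of 0.17, gasdermin and alpha-kinase genes 0.16 and NF-kB targets 0.08. Against Tlr7-/-Tlr9-/- skin on the same slide these 3 medians were -0.22, 0.05 and 0.33. Cell cycle genes thus stayed on the lower side in that comparison, with 0 called. Skeletal muscle genes had a treated median of -0.48, with 23 of 32 below the treated range. On the same slide their median was only -0.10, with 0 called. Dendritic and Langerhans cell markers stayed on the lower side, with a treated median of -0.26, 7 of 16 below the treated range and 0 above. Against Tlr7-/-Tlr9-/- skin on the same slide their median was only -0.10, with 0 called. Mast cell and basophil markers had 3 of 12 below the range in untreated skin (median -0.16) and 7 of 12 below it after IMQ (median -0.33). Their median on the same slide was -0.08, with 0 called.

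The glucocorticoid list had a treated median of 0.05, with 4 of 16 above and 2 below the treated range. The 4 above were among the 9 of untreated skin: Tsc22d3, Ddit4, Errfi1 and Cebpd. Pdk4 lay 0.22 below the treated range and Per1 inside it. Cebpd, a transcription factor of the acute-phase response, read 13.18 in untreated Card14-/- and 12.65 to 12.85 in the other untreated skin, and 13.85 and 13.90 in treated Card14-/- skin, against 13.18 to 13.54 in the other treated skin. Tsc22d3 lay only 0.03 above the treated range. Of the dendritic and Langerhans cell markers, 4 lay below the range in both treatments: Flt3, Itgax, Mgl2 and Ciita. Against treated Tlr7-/-Tlr9-/- skin on the same slide these differed by -0.07, -0.29, -0.12 and -0.07. The treated comparison also held a large difference in hair genes, with 39 of 49 above the range and a median of 3.02, against -0.31 in untreated skin.

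Since no gene was called in both treatments, the genes with the widest distance to both ranges are given, chosen after their values were seen and limited to genes well above background on all 12 arrays. After Card14 itself, the lowest was Tnfsf15, which encodes TL1A, a TNF family cytokine that activates lymphocytes through DR3. It read 6.21 in untreated Card14-/- skin, against 6.68 in WT, 7.36 in Tlr7-/-, 6.90 in Tlr9-/- and 7.13 in Tlr7-/-Tlr9-/- skin. After IMQ it read 7.20 and 7.33 in Card14-/- skin, against 7.94 in WT, 8.09 in Tlr7-/-, 8.28 in Tlr9-/-, and 8.71 and 8.63 in Tlr7-/-Tlr9-/- skin. The difference was -0.80 ± 0.27 (SE, adjusted p = 0.898) in untreated and -0.98 (adjusted p = 0.868) in treated skin, and a second probe differed by -0.69 in untreated skin. Next came Cd300ld4, Tnni1 (slow muscle troponin I), Pisd (phosphatidylserine decarboxylase), Mdfi, Mucl1, Prkce (protein kinase C epsilon), Eaf2 and the clock repressor Cry1, for which the smaller of the distances below the 2 ranges was 0.18 to 0.25. Other probes went against some of these: a second Cry1 probe differed by 1.27 and a second Eaf2 probe by 0.24 in treated skin, and a second Prkce probe by 0.08 in untreated skin, so these 3 genes have no clear direction. Cd300ld4 lies 4.32 Mb from the Card14 probe, within the region examined below.

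On the higher side stood Scd3, a stearoyl-CoA desaturase of sebaceous glands, at 11.74 in untreated Card14-/- and 10.73 to 11.15 in the other untreated skin. Treated skin gave 11.55 and 11.58 in Card14-/- and 9.90 to 11.06 in the others. The other 3 Scd3 probes differed by 0.46, 0.36 and -0.03 in untreated skin, and the last of them by -0.23 in treated skin, so the probes disagree. Awat2, a wax synthase of sebaceous glands, read 10.94 in Card14-/- and 10.44 to 10.60 in the other untreated skin, and 10.34 and 10.37 in treated Card14-/- skin, against 9.38 to 9.94. The sebaceous and cholesterol synthesis list as a whole had 3 of 32 above and 8 below the untreated range. Chrnb4, a nicotinic receptor subunit, read 8.17 in untreated Card14-/- skin, 7.75 in WT and 7.85 in Tlr7-/- skin, but 4.62 in Tlr9-/- and 4.52 in Tlr7-/-Tlr9-/- skin, so it parted the other genotypes too. Sox10, the transcription factor of melanocytes and glia, read 9.59 in Card14-/- and 8.67 to 9.21 in the other untreated skin. Agr3, St3gal4, Rab3b, Abcg4 and Wfdc21 completed the 10 highest. A second Abcg4 probe differed by 0.07 in untreated and -0.16 in treated skin. None of these genes passed the test in either treatment.

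Genes near Card14 were examined because the region around a targeted allele can come from another strain. Of 267 other genes measured within 10 Mb of the Card14 probe on chromosome 11, 15 lay outside the range on the same side in both treatments, 5.62%, beside 3.43% of all genes and 3.66% of genes elsewhere on the chromosome beyond 20 Mb. Of those 15, 4 were above and 11 below, and none of the 267 was called in untreated skin. The share was 6.49% within 5 Mb and 4.46% within 20 Mb. Fn3krp, a ketosamine-3-kinase-related gene 2.09 Mb from Card14, read 6.31 in untreated Card14-/- and 3.34 to 4.35 in the other untreated skin. After IMQ it read 6.10 and 5.88 in Card14-/- skin and 1.82 to 4.05 in the others. It was well above background on 4 arrays of 12: all the Card14-/- arrays and 1 other untreated array. Fn3krp thus passed the filter mainly through the arrays where it was high, and the size of its difference was not measured. Cep295nl, 1.01 Mb away on the other side, read 5.84 in untreated Card14-/- and 6.90 to 7.46 in the other untreated skin, and 5.92 and 6.28 in treated Card14-/- skin, against 6.35 to 6.99. Septin9, Engase and Slc26a11 were lower by smaller amounts, -0.24, -0.31 and -0.19 in untreated skin. Cd300ld4, named above, was also among the 15 and differed by -0.50 in untreated skin.

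**Figure D5:**
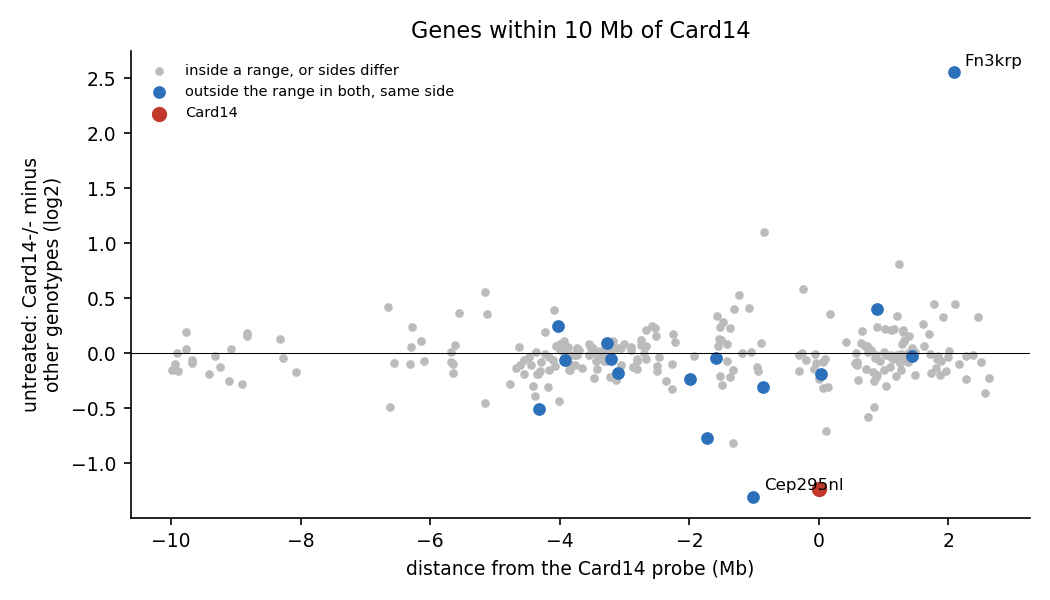
Difference of untreated Card14-/- from the other untreated skin (log2, vertical axis) for 267 genes within 10 Mb of the Card14 probe (horizontal axis, distance in Mb). Blue points are the 15 genes outside the range on the same side in both treatments, grey points the others, and the red point is Card14. Fn3krp at 2.56 and Cep295nl at -1.30 stand apart from the rest. Fn3krp was not well above background on most arrays of the other genotypes.

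The 4 arrays of slide 2 allow the treated Card14-/- skin to be set against treated Tlr7-/-Tlr9-/- skin without a change of slide. There 292 genes were called higher and 57 lower in Card14-/- skin, 1.21% and 0.237% of genes. Nothing in the labels says that repeat arrays came from separate pools, so these p-values may cover technical spread only. The count was 45 without the first Card14-/- array and 0 without the second. Card14 was lower by -1.80 (adjusted p = 0.00313). Of the antimicrobial and stress keratinocyte genes, 9 of 32 were called lower and 2 higher. Krt6b read 8.42 and 8.55 in treated Card14-/- skin and 11.52 and 11.50 in treated Tlr7-/-Tlr9-/- skin (difference -3.02, adjusted p = 0.00260). Lce3a read 6.09 and 6.26 in Card14-/- and 8.35 and 8.50 in Tlr7-/-Tlr9-/- skin (adjusted p = 0.0113). Stfa1, Krt16 and Sprr1b were lower by -1.70, -1.03 and -1.47. Against treated skin on the other slide the direction varied: Krt6b read 11.11 in WT, 7.16 in Tlr7-/- and 9.16 in Tlr9-/- skin. Treated Card14-/- skin was thus lower than WT and Tlr9-/- and higher than Tlr7-/- skin. Lce3a, Stfa1 and Krt16 took the same order, while Sprr1b was lower in Card14-/- than in each of these groups. Interferon-stimulated genes had 25 of 42 called higher than in Tlr7-/-Tlr9-/- skin, which lacks the receptor that IMQ activates. Isg15 read 12.65 and 12.67 in treated Card14-/- skin, 9.88 and 9.88 in treated Tlr7-/-Tlr9-/- skin and 13.37 in treated WT skin. Ifit1, Oasl2 and Gbp6 were likewise highest in treated WT skin. Whether treated Card14-/- skin differed from treated WT skin was not tested.

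The same comparison was made for 2 other untreated genotypes. Untreated Card14-/- skin had 49 genes called and 35.7% of genes outside the range of the other 4 pools. Untreated WT skin, set against the other 4 pools in the same way, had 4 called and 52.8% outside, and untreated Tlr9-/- skin 7 called and 39.7% outside. The Card14-/- pool thus had the most calls of the 3 and the lowest share outside the range; these differences were not tested. Of genes at least 1 outside the range, Card14-/- had 199, WT 154 and Tlr9-/- 103.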

How the data were processed

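Each file held the intensity of every spot on one single-colour (Cy3) Agilent mouse array, as deposited; the processed intensity (background-subtracted by Feature Extraction, version 10.7.3.1 per the file headers, 10.5.1.1 per the submitters' processing notes) was used. The deposited log2 table, normalized across arrays by the authors with limma per the labels, served as an alternative. From the 59305 gene spots per array, log2 intensities were quantile normalized over 12 arrays (limma 3.58.1, R 4.3.3). After 235 probes with outlier flags were left out, the filter left 37125 probes that rose well above background on 2 arrays or more, and the brightest probe stood for a gene (24080 genes, of which 15982 had a gene name). Probe coordinates are mm9, per the file headers. Accessions of 32994 of 56605 probes matched RefSeq names; other probes kept their file name.

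Fits used lmFit and eBayes with Benjamini-Hochberg adjustment over all genes. In the treated and combined fits repeat arrays were averaged to 1 value per group. A gene below background in one group is given as at least N-fold, against the dimmest signal well above background per array. The members, lists, named genes and tests were chosen with earlier results of these data known. Named genes are Card14, the 15 largest called rises and falls outside the range (fewer called: the 10 with the widest distance), the kept genes, and list members of known role picked with their values known; gene models and clones were passed over. The number of arrays limits the precision: each untreated genotype is 1 pool.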

Additional observations from a re-analysis of the deposited data

Results flagged for a closer look

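In 7 of 88 named genes, 1 of the 4 other untreated arrays stood apart from the remaining 3 by Dixon's test; chance alone gives about 1 in 20. Ccl20 read 5.59 in untreated Card14-/- skin, 7.22 in the Tlr7-/- pool that stood apart and 6.32 to 6.43 in the remaining 3. Ifit1 read 5.72 in Card14-/-, 6.72 in Tlr9-/- and 6.35 to 6.40 in the remaining pools, and Isg15 read 10.52 in Card14-/-, 11.24 in Tlr9-/- and 10.35 to 10.38 in the rest. Cebpd read 13.18 in Card14-/-, 12.85 in Tlr7-/-Tlr9-/- and 12.65 to 12.67 in the rest, and Lrrc34 read 6.77, 2.35 and 1.98 to 2.03 in the same order of pools. Mucl1 read 7.46 in Card14-/-, 7.65 in WT and 8.19 to 8.25 in the rest, and Itgax read 9.01 in Card14-/-, 9.06 in WT and 9.24 to 9.27 in the rest. The Card14-/- values lay outside all 4 for Ccl20, Ifit1, Cebpd, Lrrc34, Mucl1 and Itgax.

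The Card14-/- difference of Nhs was 0.39 in treated and -3.60 in untreated skin, and the change of 3.99 passed the test (adjusted p = 0.0386). Nhs was not well above background in untreated Card14-/- skin, where only a bound of at least 2.60-fold lower can be given, so the size of the change was not measured. The call was lost with the normexp background and with the mean over probes.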

How the results depend on the processing

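Calls in untreated skin were 36 to 42 higher and 4 to 5 lower under 75th percentile scaling, normexp background and the deposited log2 table. They numbered 490 with no filter on dim probes, 4 with probes well above background on all 12 arrays, 4 with those on all 5 untreated arrays (added after seeing the data), 9 with the spread pooled over 10 groups, and 20 to 34 with 1 other untreated array left out. Genes at least 1 outside the range numbered 44 with normexp background, 62 in the deposited table, 802 with no filter and 37 with the 12-array filter, against 199. Genes outside the range in both treatments numbered 740 to 997 under these settings, and 1002 to 1391 with 1 other untreated array left out.

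Calls in treated skin, 1 in all, numbered 3 with normexp, 0 in the deposited table, 83 with no filter, 0 with the 12-array filter, 2 without WT IMQ, 0 without Tlr7-/- IMQ, 0 without Tlr9-/- IMQ, 8 with 7 arrays as separate values, 7 with slide as a block, and 1 to 4 with 1 repeat array left out. Over both treatments the deposited table gave 1 and no filter gave 6, against 0. The change between treatments was called for 3 genes with 75th percentile scaling, 13 with normexp, 10 in the deposited table, 363 with no filter, 0 with the 12-array filter and 0 with the mean over probes, against 1. The cause of these shifts was not tested, apart from the filters, which change which genes are tested.

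Within slide 2 the replicate block gave 102 calls, against 349; repeat numbers did not pair the arrays (correlation of deviations 0.058 over 2 pairs), and leaving out 1 array gave 0 to 195. The untreated groups share only the number 1, so no block was possible there. Directions turned for genes near 0: Bcl10 (0.20) with the mean over probes and Card10 (0.0003) with 75th percentile scaling. That of Mylk2, 0.42, turned to -0.37 with the mean over probes, since its second probe, above background on 9 arrays, differed by -1.16. With 1 other untreated array left out, the difference spanned -0.023 to 0.13 for Malt1, -0.043 to 0.012 for Card10 and -0.14 to 0.15 for Isg15. Of 949 values of 88 named genes under 11 alternatives, 880 kept direction and call, 60 lost the call, 2 gained one and 7 turned. List counts stayed within 1.5 times. Card14 had 1 probe, so other probes could not be tried.

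A single pool per untreated genotype limits the comparison: pool, array row and genotype cannot be told apart for Card14-/-. Most calls rest on dim probes. Treated Card14-/- arrays lie on another slide than WT, Tlr7-/- and Tlr9-/-.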
